A study of Mus musculus with 6 samples.

Results

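The 34 genes described here encode the control proteins and enzymes of cholesterol synthesis and the proteins through which cells store, move and export sterols. They were chosen by symbol, by their known roles, as a set that puts synthesis driven by SREBP2 beside efflux driven by the liver X receptors (LXR), and all 34 were found among the 54446 genes listed in each count file. The set holds 4 regulators of SREBP2, 7 enzymes that make farnesyl diphosphate by way of mevalonate, 11 enzymes that turn it into cholesterol, 5 genes of sterol storage and trafficking, both LXR genes and 5 LXR-driven efflux genes. Expression was measured by RNA-seq in the livers of 3 WT and 3 *Fmo5-/-* mice, 1 library per mouse. All were males of 32 weeks of age on standard chow, kept in adjacent cages and sampled in the same part of the day; the *Fmo5-/-* mice lack a working gene for flavin-containing monooxygenase 5 in every tissue, on the C57BL/6J background of the WT mice (C57BL/6 in the labels).

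Hepatocytes make cholesterol from acetyl-CoA, take it up from lipoproteins, and dispose of it into bile, either as free cholesterol or as bile acids. When the sterol content of the endoplasmic reticulum is low, SCAP escorts SREBP2 to the Golgi, where it is cut to release a transcription factor that raises the genes of the synthesis pathway. When sterols are abundant, INSIG proteins hold SCAP back, and oxysterols activate LXR, which raises the genes of sterol export. Synthesis and efflux genes are therefore known to respond to cellular sterols in opposite directions.

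The libraries held 44886286 to 52338675 counts on genes. *Fmo5* itself gave normalized counts (counts scaled to a common library size) of 39808, 37405 and 30240 for WT mice 1, 2 and 3, against 1071, 1102 and 1194 for *Fmo5-/-* mice 1, 2 and 3, a log2 fold change of -5.00 ± 0.14 (SE). The 8 hepatocyte markers were abundant in every library, and none of them passed the test. Fold changes are given throughout as *Fmo5-/-* over WT on the log2 scale, with the standard error, from the quasi-likelihood test of edgeR, and a gene was called differentially expressed at an adjusted p under 0.05 where the normalized count also averaged at least 500 across the 6 mice. By this rule 126 of the 16734 genes tested, or 0.753%, were called, and 1.61% of the 7819 that reached this mean. Those called lower made up 0.496% and those called higher 0.257% of the genes tested.

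None of the 34 genes was called by edgeR, although all of them passed the filter on low counts and 31 reached the mean of 500. The exceptions were *Soat1*, *Abcg1* and *Mylip*, which could not be called at their level. The smallest adjusted p among the 34 was 0.0779. At an unadjusted p under 0.05, the count was 7 of the 34 genes, against 21.8% of all genes tested. Of the 7, 1 had a lower and 6 a higher mean in *Fmo5-/-* mice, against 10.2% and 11.6% of all genes. DESeq2 called 2 of them, *Hsd17b7* lower and *Abcg5* higher, against 4.78% of the genes to which it gave an adjusted p (3.39% lower and 1.39% higher). The normalized counts of the 3 *Fmo5-/-* mice lay wholly outside those of the 3 WT mice for 7 of the 34 genes, which compares with 27.4% of all genes tested (13.5% lower and 13.9% higher). The 7 were the same genes as at the unadjusted threshold: *Hsd17b7* had the lower mean, and *Soat1*, *Npc2*, *Nr1h2*, *Abcg1*, *Abcg5* and *Abcg8* the higher. A comparison of single genes by an exact permutation test cannot go below a p of 0.1 with 3 mice against 3.

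**Figure D1:**
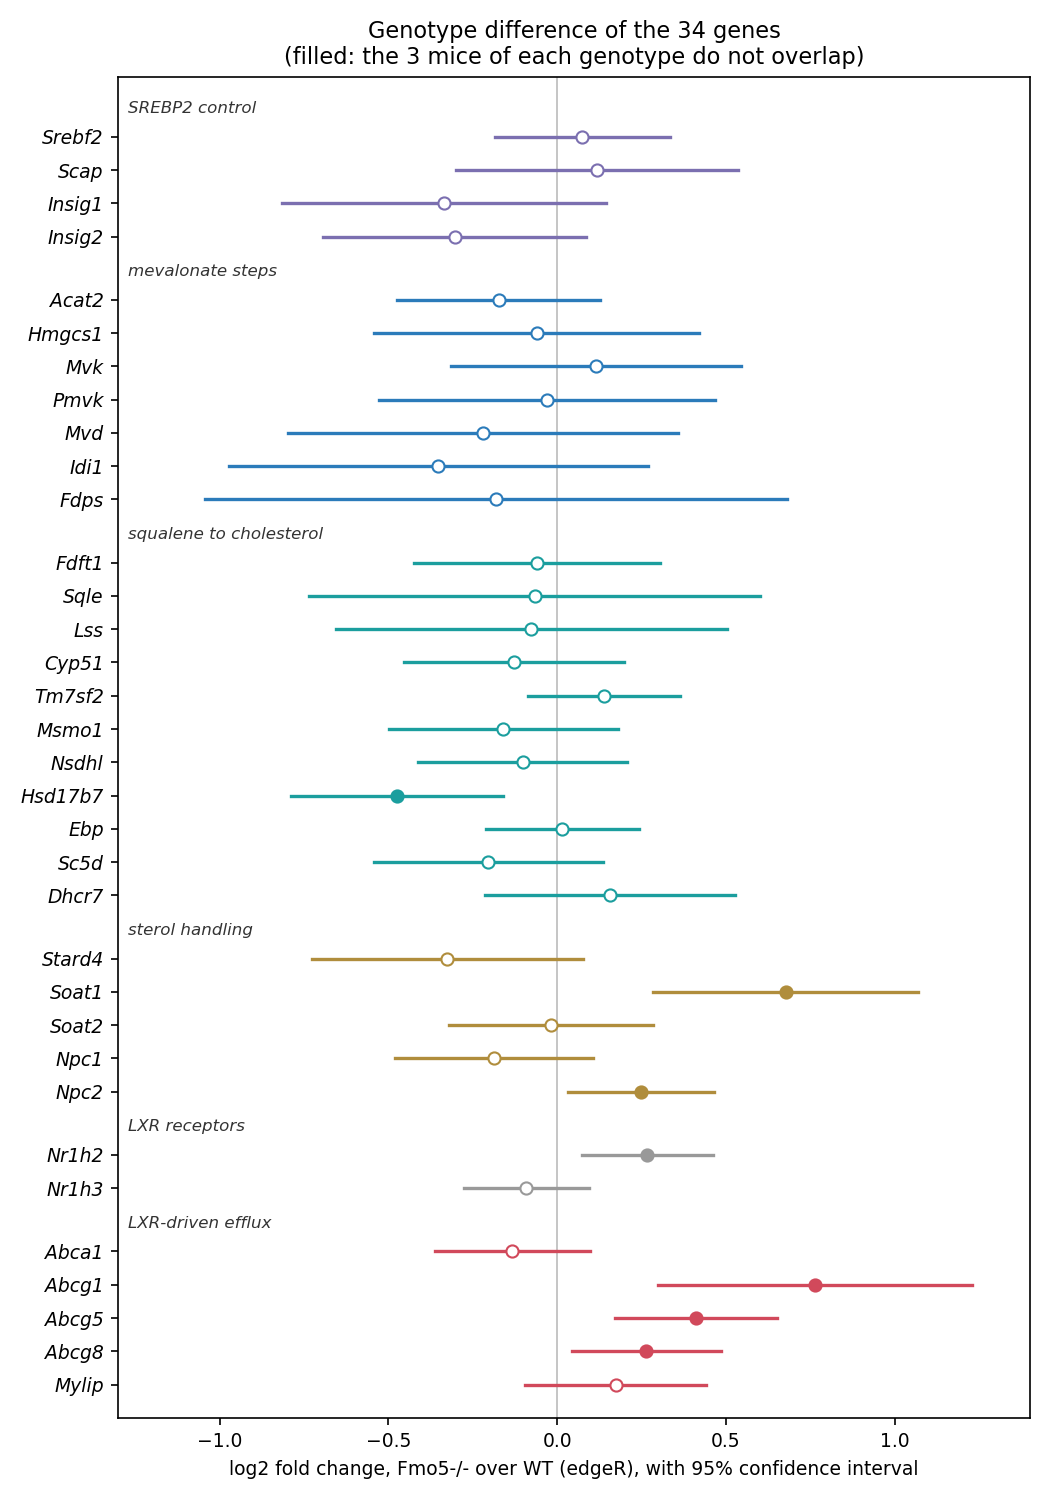
Log2 fold change, *Fmo5-/-* over WT, of each of the 34 genes, grouped by role, with its 95% confidence interval from edgeR; filled points mark genes whose normalized counts do not overlap between the 3 mice of each genotype. The 7 filled points comprise *Hsd17b7* to the left of 0 and 6 genes of sterol handling, LXR and efflux to the right.

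The regulators of SREBP2 did not separate the genotypes. *Srebf2*, the gene for SREBP2, gave normalized counts of 3015, 3440 and 3830 for WT mice 1, 2 and 3 and of 4097, 3330 and 3406 for *Fmo5-/-* mice 1, 2 and 3, the order kept below. Its log2 fold change was 0.07 ± 0.11 with a 95% confidence interval of -0.18 to 0.33, and the groups overlapped. For *Scap*, which encodes the escort protein, the counts were 6218, 6335 and 8736 in WT and 9334, 6166 and 7608 in *Fmo5-/-* mice. WT mouse 3 and *Fmo5-/-* mouse 1 were high, and the log2 fold change was 0.12 ± 0.18.

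The genes for both retention proteins had lower means in *Fmo5-/-* mice, within the spread between mice. *Insig1*, which is itself a target of SREBP2, had a normalized count of 28124, 22795 and 32557 in WT and of 26162, 15663 and 24329 in *Fmo5-/-* mice. The value of *Fmo5-/-* mouse 2 was the lowest of the 6 and the other *Fmo5-/-* mice lay within the WT range (log2 fold change -0.34 ± 0.21, adjusted p = 0.393). *Insig2* had 19978, 12573 and 16357 in WT and 14036, 14370 and 11225 in *Fmo5-/-* mice, again with overlap (log2 fold change -0.30 ± 0.17, adjusted p = 0.345). The log2 fold change ranged from -0.48 to -0.14 for *Insig1* and from -0.46 to -0.13 for *Insig2* when a mouse was left out. Over all the settings tried, their adjusted p ranged from 0.0351 to 0.703 and from 0.0377 to 0.753, each lowest without the filter on low counts. Together the 4 regulators ranged from -0.34 to 0.12 and none passed the main edgeR test.

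Most enzymes of synthesis had a slightly lower mean in *Fmo5-/-* mice, and none of them was called by edgeR, while DESeq2 called 1 of the 18, *Hsd17b7*. Of the 18 enzymes, 14 had a log2 fold change below 0 and 4 above, with a median of -0.09. Among all genes tested, 49.2% were below 0, with a median of 0.01, but among the 7819 genes with a mean of 500 or more, where all 18 belong, 64% were below 0 with a median of -0.06. The direction rested on WT mouse 3. Without it, 5 of the 18 were lower and the median was 0.11, and without WT mouse 1, 17 of the 18 were lower and the median was -0.23.

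Of the 7 enzymes up to farnesyl diphosphate, 6 had a lower mean in *Fmo5-/-* mice and none passed the test (median log2 fold change -0.17, range -0.35 to 0.12, smallest adjusted p = 0.487). They comprise *Acat2*, the cytosolic acetoacetyl-CoA thiolase; *Hmgcs1*, which makes HMG-CoA; the mevalonate kinases *Mvk* and *Pmvk*; the decarboxylase *Mvd*; the isomerase *Idi1*; and *Fdps*, farnesyl diphosphate synthase. *Hmgcs1*, the most abundant of these, had a normalized count of 22504, 28234 and 39955 in WT and of 26466, 33929 and 26539 in *Fmo5-/-* mice. Every *Fmo5-/-* value lay between those of WT mice 1 and 3 (log2 fold change -0.06 ± 0.21). *Idi1* had the smallest unadjusted p of the 7, with 1044, 2190 and 1831 in WT and 1453, 1227 and 1288 in *Fmo5-/-* mice. Its lowest and its highest value were both in WT mice (log2 fold change -0.35 ± 0.26, adjusted p = 0.487). *Pmvk* and *Fdps* lie on chromosome 3 with *Fmo5*, 8.16 and 8.53 Mb from it, and had log2 fold changes of -0.03 ± 0.21 and -0.18 ± 0.35. Exons of 12 of the 34 genes share bases with another annotated gene, at most 26.7% of their length (*Fdps* with *Gm43738*), and reads from such a stretch are counted for neither gene.

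Of the 11 enzymes from squalene synthase to cholesterol, 8 had a lower mean in *Fmo5-/-* mice, and 10 overlapped between the genotypes. The exception was *Hsd17b7* (ENSMUSG00000026675.12, chr1:169949535-169969241, minus strand, mm10), which encodes the ketosteroid reductase of the sterol demethylation complex and also acts on estrone. Its normalized count was 3624, 5016 and 5347 in WT and 3540, 3137 and 3396 in *Fmo5-/-* mice. All 3 *Fmo5-/-* values were below the lowest WT value, that of WT mouse 1, by a small margin. The mean was 4662 ± 914 (SD, n = 3) in WT and 3358 ± 204 in *Fmo5-/-* mice. The log2 fold change was -0.47 ± 0.14, with a 95% confidence interval of -0.79 to -0.16 and an edgeR adjusted p of 0.101. DESeq2 called the gene (adjusted p = 0.0185), as did edgeR without WT mouse 1 (adjusted p = 0.0492). Over all the settings tried the adjusted p ranged from 9.0e-05 to 0.281, lowest without the filter on low counts.

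The partners of HSD17B7 in the demethylation complex overlapped between the genotypes. *Msmo1*, the methyl sterol oxidase, had a log2 fold change of -0.16 ± 0.15, and *Nsdhl*, the dehydrogenase, one of -0.10 ± 0.14. Earlier in the arm, *Fdft1* (squalene synthase) was at -0.06 ± 0.16, *Lss* (lanosterol synthase) at -0.08 ± 0.24 and *Cyp51* (lanosterol demethylase) at -0.13 ± 0.14. *Sqle*, squalene epoxidase and a rate-limiting step, had a normalized count of 3422, 6057 and 7803 in WT and of 5415, 5542 and 5549 in *Fmo5-/-* mice. The *Fmo5-/-* mice were nearly equal and the WT mice lay on both sides of them, and the log2 fold change was -0.07 ± 0.28. The reductases *Tm7sf2* (0.14 ± 0.10) and *Dhcr7* (0.16 ± 0.16) and the isomerase *Ebp* (0.02 ± 0.10) had log2 fold changes above 0, and the desaturase *Sc5d* one of -0.20 ± 0.15. Adjusted p-values of these 10 enzymes were 0.461 or more.

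**Figure D2:**
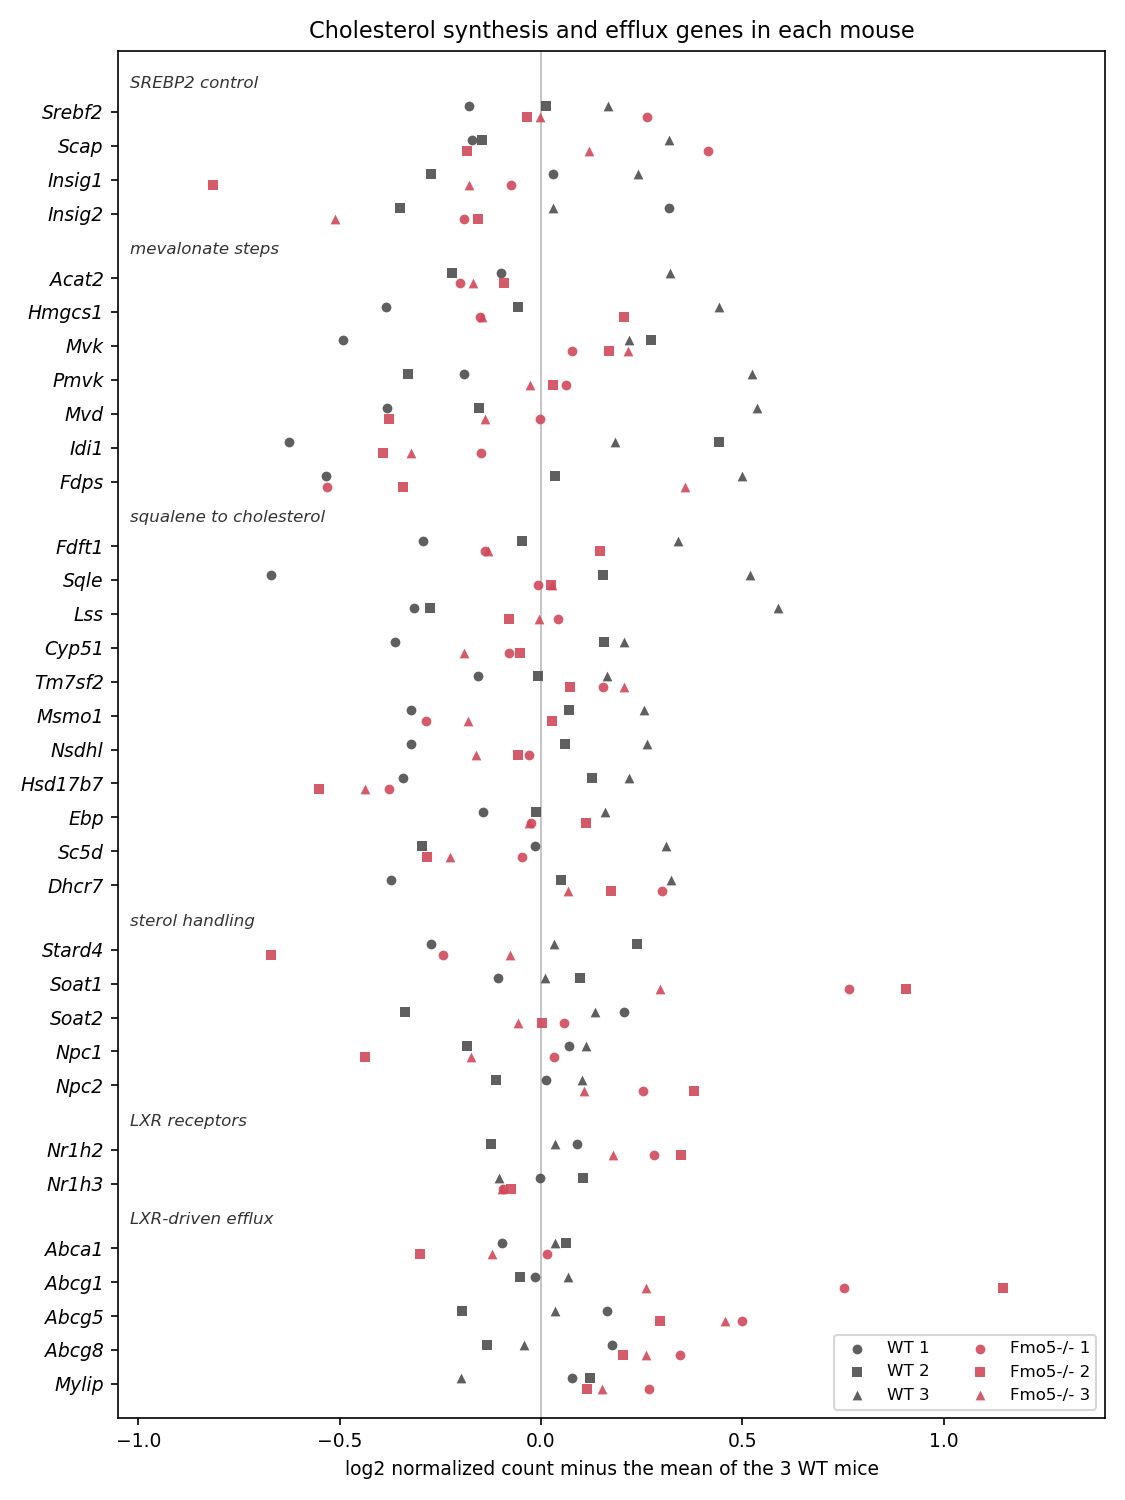
Log2 normalized count of each of the 34 genes in each mouse, minus the mean of the 3 WT mice, grouped by role; symbols mark the mouse and colours the genotype. WT mouse 1 is the lowest and WT mouse 3 the highest WT mouse for most synthesis enzymes, with the *Fmo5-/-* mice between them, whereas for *Abcg5*, *Abcg8*, *Abcg1*, *Soat1*, *Npc2* and *Nr1h2* every *Fmo5-/-* value lies to the right of every WT value.

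The pattern shared by the synthesis enzymes was their spread among WT mice. WT mouse 1 was the lowest WT mouse for 15 of the 18 enzymes, against 31.3% of the 16719 genes with counts in every mouse, and WT mouse 3 the highest for 16 of the 18, against 34.7%. The standard deviation of log2 normalized counts was larger in WT than in *Fmo5-/-* mice for 18 of 18 enzymes, against 51.5% of the same genes. Its median over the enzymes was 0.33 in WT and 0.08 in *Fmo5-/-* mice, whereas over all genes with a mean of 500 or more it was 0.11 in both genotypes. For 16 of the 18 enzymes all 3 *Fmo5-/-* values lay inside the range of the WT values, compared with 12.7% of genes with a mean of 500 or more. Because enzymes measured in the same mouse share its state, these counts describe 6 mice and not 18 independent genes, and a difference in spread between groups of 3 mice was not tested.

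Averaged over the 18 enzymes, the level of WT mice 1, 2 and 3 was -0.30, 0.03 and 0.37 on the log2 scale relative to the mean of the 6 mice, and that of the *Fmo5-/-* mice -0.04, -0.03 and -0.04. The SD of this average was 0.34 in WT and 0.003 in *Fmo5-/-* mice. Within the 18, the *Fmo5-/-* value was larger for each part of the pathway. For the 7 enzymes up to farnesyl diphosphate, the SD of the average was 0.388 in WT and 0.051 in *Fmo5-/-* mice. For the 11 enzymes from squalene synthase to cholesterol, it was 0.303 in WT and 0.031 in *Fmo5-/-* mice. Outside the enzymes, the WT spread was larger for 2 of the 4 regulators and 1 of the 5 genes of sterol handling. It was also larger for 3 of the 5 efflux genes, *Nr1h2* and *Nr1h3*, which made 26 of all 34 genes with the enzymes included. The level of 5 cholangiocyte markers had the same order among WT mice, at -0.36, -0.19 and 0.56, and was -0.13, 0.21 and -0.10 in the *Fmo5-/-* mice. The level of 6 genes raised by feeding was 0.04, 0.00 and 0.61 in WT mice, also highest in mouse 3, and 0.06, -0.71 and 0.01 in *Fmo5-/-* mice. The level of 6 genes raised by fasting was 0.37, 0.04 and 0.32 in WT and 0.41, -0.52 and -0.63 in *Fmo5-/-* mice, so among WT mice it was highest in mouse 1. The level of 11 clock genes was -0.04, 0.33 and -0.01 in WT and -0.05, -0.37 and 0.14 in *Fmo5-/-* mice. This average joins genes that went opposite ways, so it understates differences between mice. In WT mouse 2 *Dbp* was high and *Arntl* low. *Dbp* had a normalized count of 557, 1772 and 330 in WT and of 385, 324 and 818 in *Fmo5-/-* mice. *Arntl* had 1299, 497 and 1347 in WT and 1168, 983 and 948 in *Fmo5-/-* mice. The part of cell composition, feeding and time of sampling in the spread was not tested.

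**Figure D3:**
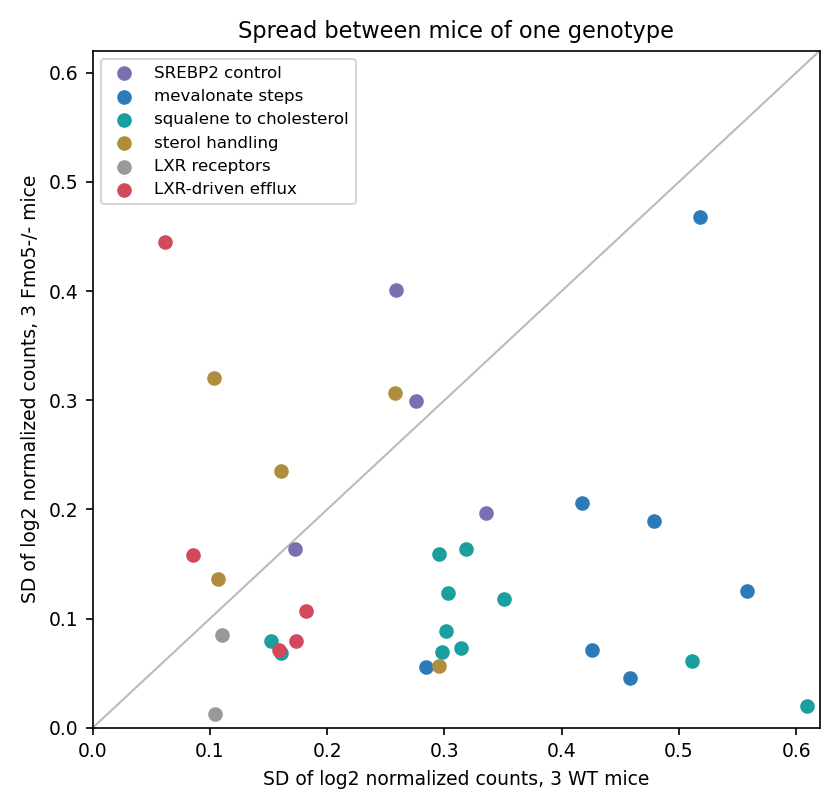
Standard deviation of log2 normalized counts between the 3 mice of each genotype, WT on the horizontal and *Fmo5-/-* on the vertical axis, 1 point per gene, coloured by role; the line marks equal spread. All 18 synthesis enzymes lie below the line, with a median of 0.33 in WT and 0.08 in *Fmo5-/-* mice.

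Promoter sequence was examined because the synthesis enzymes moved together between WT mice. RefSeq promoters (GRCm38.p6, 250 bases before to 50 after the start) were available for 27 of the 34 genes, 15 of them synthesis enzymes. The letters TCACNCCAC, a form of the sterol regulatory element that SREBP proteins bind, were searched on both strands and occurred in 1 of the 27, *Hmgcs1*, and in 1.44% of all 27025 genes with a promoter. The palindromic E box TCACGTGA, which SREBP proteins also bind, occurred in none of the 27 and in 1.12% of all genes. ATTGG, the reverse complement of the CCAAT box to which the SREBP partner NF-Y binds, occurred on either strand in 14 of the 15 synthesis enzymes and in 22 of the 27 genes, compared with 41.1% of all genes. A match to these letters is a description of the window and not evidence of binding, and the absence of a match says nothing of a site outside it. The promoters of *Hmgcs1* (the bases before the start at chr13:119690151-119690350, plus strand), which holds both motifs, and of *Hsd17b7* (chr1:169969242-169969405, minus strand), the enzyme with the lowest log2 fold change, are shown with the sterol regulatory element and ATTGG in capitals.
Hmgcs1: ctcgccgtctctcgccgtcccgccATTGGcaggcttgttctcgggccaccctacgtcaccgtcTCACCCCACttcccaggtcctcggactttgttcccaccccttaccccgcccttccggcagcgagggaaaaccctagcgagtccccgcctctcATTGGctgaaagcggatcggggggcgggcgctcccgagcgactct
Hsd17b7: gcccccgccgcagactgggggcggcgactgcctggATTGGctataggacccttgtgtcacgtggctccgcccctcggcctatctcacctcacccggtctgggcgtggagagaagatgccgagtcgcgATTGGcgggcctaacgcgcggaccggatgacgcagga
The sterol regulatory element of *Hmgcs1* starts 137 bases before the start and stands between copies of ATTGG. The stretch shown of *Hsd17b7* holds ATTGG 165 and 73 bases before the start.

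The genes of sterol storage and trafficking went different ways. *Soat1* (ENSMUSG00000026600.12, chr1:156424525-156474331, minus strand), which esterifies cholesterol in macrophages and many other cells, had a normalized count of 179, 206 and 194 in WT and of 328, 362 and 237 in *Fmo5-/-* mice. The groups did not overlap, and *Fmo5-/-* mouse 3 was nearest to WT. The mean was 193 ± 14 (SD, n = 3) in WT and 309 ± 65 in *Fmo5-/-* mice, a log2 fold change of 0.68 ± 0.17 (edgeR adjusted p = 0.0779). The adjusted p ranged from 0.00228 to 0.211 over the settings tried, lowest without the filter on low counts, and the mean of 500 was not reached. *Soat2*, the esterifying enzyme of hepatocytes, overlapped between the genotypes with a log2 fold change of -0.02 ± 0.13.

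*Npc2* (ENSMUSG00000021242.9, chr12:84754562-84773152, minus strand), which binds cholesterol in the lysosome and hands it to NPC1, had 3394, 3117 and 3611 in WT and 4014, 4379 and 3628 in *Fmo5-/-* mice. The highest WT value and the lowest *Fmo5-/-* value were nearly equal, and the log2 fold change was 0.25 ± 0.10 (edgeR adjusted p = 0.176). *Npc1*, its membrane partner, was at -0.19 ± 0.13 with overlap. *Stard4*, a cytosolic sterol carrier whose gene is a target of SREBP2, had 6105, 8706 and 7545 in WT and 6231, 4629 and 6988 in *Fmo5-/-* mice. *Fmo5-/-* mouse 2 was the lowest of the 6, as it was for *Insig1*, and the log2 fold change was -0.32 ± 0.17 (edgeR adjusted p = 0.326). Over all the settings tried, the adjusted p of *Stard4* ranged from 0.0216 to 0.629, again lowest without the filter on low counts.

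The genes for the LXR proteins differed from each other. *Nr1h2* (ENSMUSG00000060601.13, chr7:44549616-44553951, minus strand) encodes LXR beta, which is expressed in most cells. It had a normalized count of 2342, 2021 and 2257 in WT and of 2674, 2801 and 2492 in *Fmo5-/-* mice, with no overlap, a log2 fold change of 0.27 ± 0.09 and an edgeR adjusted p of 0.124. A pseudogene copy, *Nr1h2*-ps, is annotated, and reads that map to both are not counted. *Nr1h3*, which encodes LXR alpha, the form abundant in liver and macrophages, had 5953, 6411 and 5549 in WT and 5579, 5662 and 5569 in *Fmo5-/-* mice. The groups overlapped and the 95% confidence interval of its log2 fold change was -0.28 to 0.09. Per length, the level of *Nr1h3* in WT mice was 48.7 ± 3.5 CPM (counts scaled to a common library total) per kb of exon and that of *Nr1h2* was 13.5 ± 1.0.

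Of the 5 LXR-driven efflux genes, 4 had a higher mean in *Fmo5-/-* mice (median log2 fold change 0.26), and 3 did not overlap between the genotypes. None was called by edgeR, where 0.257% of all genes tested were called as higher. The background of genes higher without overlap was 13.9%. *Abcg5* (ENSMUSG00000040505.13, chr17:84658234-84683011, minus strand) and *Abcg8* (ENSMUSG00000024254.15, chr17:84676302-84700333, plus strand) encode the subunits of the transporter that moves cholesterol and plant sterols from hepatocytes into bile. *Abcg5* had a normalized count of 3980, 3102 and 3641 in WT and of 5027, 4364 and 4876 in *Fmo5-/-* mice. Every *Fmo5-/-* mouse exceeded every WT mouse, the means being 3574 ± 443 and 4756 ± 347 (SD, n = 3). The log2 fold change was 0.41 ± 0.11, with a 95% confidence interval of 0.17 to 0.65 and an edgeR adjusted p of 0.0786. DESeq2 called the gene (adjusted p = 0.0248). The adjusted p ranged from 0.00261 to 0.184 over the settings tried, lowest without the filter on low counts.

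*Abcg8* had 5065, 4089 and 4360 in WT and 5696, 5163 and 5370 in *Fmo5-/-* mice. The groups did not overlap, although WT mouse 1 lay close to the lowest *Fmo5-/-* mouse. Its log2 fold change was 0.26 ± 0.10 (edgeR adjusted p = 0.162). The subunit genes kept the same order of mice within each genotype, with WT mouse 1 and *Fmo5-/-* mouse 1 the highest and mouse 2 of both genotypes the lowest. The ratio of *Abcg5* to *Abcg8* was 0.786, 0.759 and 0.835 in WT and 0.882, 0.845 and 0.908 in *Fmo5-/-* mice. Exons of the genes share 82 bases on opposite strands, and reads there belong to neither.

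The RefSeq starts of the genes lie 110 bases apart and the genes run away from each other from there, so the bases between these starts (chr17:84683012-84683120, given on the plus strand) precede both. The GENCODE span of *Abcg8* given above reaches further back, into *Abcg5*, so the stretch lies within that span. They are shown because this stretch is common to the pair, and they hold none of the motifs searched.
Abcg5 and Abcg8: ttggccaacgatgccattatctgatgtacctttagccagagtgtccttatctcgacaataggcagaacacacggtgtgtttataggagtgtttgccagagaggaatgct
The LXR element was searched as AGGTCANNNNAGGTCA on both strands, which occurred in 0.0148% of all genes and in none of the 27, and in the looser form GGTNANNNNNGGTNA. The looser form occurred in 0.818% of all genes and in 1 of the 27, *Abca1*, on the opposite strand from 67 bases before the start. It is shown in capitals in the bases before the *Abca1* start (chr4:53159896-53159995, minus strand).
Abca1: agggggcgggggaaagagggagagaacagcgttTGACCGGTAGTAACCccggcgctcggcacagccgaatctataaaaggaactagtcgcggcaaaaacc

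*Abca1*, which loads cholesterol onto apolipoprotein A-I to form HDL and is a defining LXR target, went the other way from the rest of its list. It had a normalized count of 8882, 9927 and 9742 in WT and of 9601, 7717 and 8732 in *Fmo5-/-* mice, with overlap. Its log2 fold change was -0.13 ± 0.10, with a 95% confidence interval of -0.36 to 0.10 (edgeR adjusted p = 0.492). *Mylip*, the ligase that marks the LDL receptor for degradation, had 412, 425 and 340 in WT and 470, 423 and 434 in *Fmo5-/-* mice, with overlap and a log2 fold change of 0.17 ± 0.12.

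*Abcg1* (ENSMUSG00000024030.6, chr17:31057675-31117988, plus strand), which exports cholesterol to HDL and is abundant in macrophages, had the highest log2 fold change of the 34 genes at a low level. Its normalized count was 228, 222 and 241 in WT and 388, 510 and 276 in *Fmo5-/-* mice. The WT mice were nearly equal and the *Fmo5-/-* mice were all higher, with mouse 3 the nearest to WT. The log2 fold change was 0.76 ± 0.21 (95% confidence interval 0.30 to 1.23, edgeR adjusted p = 0.0849). It was 0.53 without *Fmo5-/-* mouse 2 and 0.96 without mouse 3 (adjusted p = 0.0125). Over all the settings tried the adjusted p of *Abcg1* ranged from 6.9e-05 to 0.211, lowest without the filter on low counts. Its mean was below 500 throughout.

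Markers of Kupffer cells and other macrophages had higher means in *Fmo5-/-* mice, as did *Soat1*, *Abcg1*, *Npc2* and *Nr1h2*. These 4 genes were taken from the 6 of the 34 that were higher without overlap, so their direction was known beforehand. By contrast *Nr1h3*, *Npc1* and *Abca1* had lower means, with log2 fold changes of -0.09, -0.19 and -0.13. All 12 markers had a higher mean in *Fmo5-/-* mice, 11 of them without overlap, against 13.9% of all genes tested. The median of their log2 fold changes was 1.14, and none was at 0 in any library. edgeR called 1 of the 12 as higher (*Clec4f*, named after its values were seen), against 0.257% of all genes tested, and DESeq2 called 8, against 1.39%. Their summed normalized count was 15251, 15999 and 13513 in WT and 37118, 38525 and 21077 in *Fmo5-/-* mice. The order of the *Fmo5-/-* mice in this sum, mouse 2 first and mouse 3 last, was also their order for *Soat1*, *Abcg1*, *Npc2* and *Nr1h2*, but not for *Abcg5* or *Abcg8*. Among WT mice none of these 4 genes followed the order of the sum, and *Abcg1* and *Npc2* ran in the reverse order. By the mean log2 level of the markers, mice 1 and 2 were close in the other order (0.89, 0.85 and -0.10 in mice 1, 2 and 3), with mouse 3 again last. The summed counts of the 8 endothelial, the 6 lymphocyte, the 2 tested neutrophil and the 5 cholangiocyte markers had the same order of *Fmo5-/-* mice as the macrophage sum, although the median log2 fold change of the cholangiocyte markers was 0.03. The 6 lymphocyte markers were also higher on average in *Fmo5-/-* mice (median log2 fold change 0.90, smallest edgeR adjusted p = 0.120), none of them reaching the mean of 500 that a call needs, with a summed normalized count of 221 to 359 in WT and of 357 to 844 in *Fmo5-/-* mice. Both neutrophil markers tested were higher without overlap (median log2 fold change 1.28), also below the mean of 500, with a sum of 35.8 to 108 in WT and of 111 to 225 in *Fmo5-/-* mice. In whole liver, more cells of a type and more RNA per cell cannot be told apart, and the part of these marker lists in the 4 genes was not tested.

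**Figure D4:**
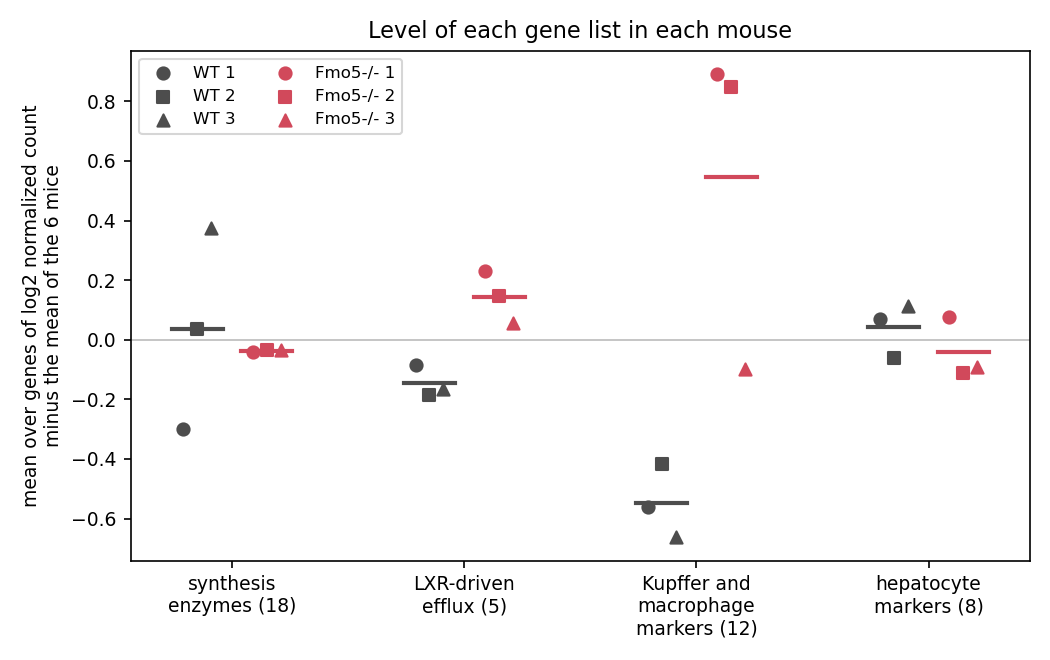
Level of each gene list in each mouse, as the mean over its genes of log2 normalized counts minus the mean of the 6 mice; symbols mark the mouse, colours the genotype and bars the mean of 3 mice. The efflux list runs from -0.18 to -0.08 in WT and from 0.06 to 0.23 in *Fmo5-/-* mice, the synthesis list overlaps, and *Fmo5-/-* mouse 3 lies apart from the other *Fmo5-/-* mice in the macrophage markers.

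Set side by side, the median log2 fold change was -0.09 for the 18 synthesis enzymes and 0.26 for the 5 efflux genes, a difference of -0.35. Averaged over the 5 genes, the efflux level was -0.08, -0.18 and -0.17 in WT and 0.23, 0.15 and 0.06 in *Fmo5-/-* mice on the log2 scale relative to the mean of the 6 mice. These levels did not overlap, but the separation rested on *Abcg1*. Without *Abcg1*, an alternative chosen after seeing the data, the efflux level was -0.01, -0.13 and -0.13 in WT and 0.19, -0.01 and 0.10 in *Fmo5-/-* mice, with overlap between WT mouse 1 and *Fmo5-/-* mouse 2, and the median log2 fold change was 0.22. The synthesis level minus the efflux level was -0.21, 0.22 and 0.54 in WT and -0.27, -0.18 and -0.09 in *Fmo5-/-* mice, so that WT mouse 1 fell among the *Fmo5-/-* mice. The difference of the medians was -0.14 without WT mouse 3 and -0.59 without WT mouse 1, and no test was made of a list as a whole.

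A further 35 genes of the same pathways that are not among the 34 were tested, and none was called by edgeR, where 8 passed an unadjusted p of 0.05 (21.8% of all genes tested did) and DESeq2 called 3 (4.78% of the genes with an adjusted p). Of the 35, 26 had a lower and 9 a higher mean, and their median log2 fold change was -0.09, while 49.2% of all genes tested and 64% of those with a mean of 500 or more were below 0. The 7 further LXR targets among them comprised 6 with a lower and 1 with a higher mean, with a median of -0.12. The pair with the smallest unadjusted p among the higher genes comprised *Arl4c*, the LXR target with the higher mean (145, 133 and 138 in WT and 226, 290 and 179 in *Fmo5-/-* mice, log2 fold change 0.74 ± 0.19, edgeR adjusted p = 0.0779), and *Gramd1a*, a carrier of cholesterol from the plasma membrane to the endoplasmic reticulum (0.36 ± 0.09, adjusted p = 0.0786). Among the lower genes the pair comprised *Osbp*, a sterol exchanger of the Golgi (3959, 3882 and 3572 in WT and 3213, 2563 and 3085 in *Fmo5-/-* mice, -0.37 ± 0.10, adjusted p = 0.0869), and *Lipa*, the lysosomal lipase that frees cholesterol from its esters (-0.37 ± 0.10, adjusted p = 0.0900). The groups did not overlap for any of these genes. The 3 that DESeq2 called were *Gramd1a* (adjusted p = 0.0443), *Osbp* (0.0281) and *Lipa* (0.0162). Among all 35 the groups did not overlap for 6 lower and 4 higher genes, against 13.5% and 13.9% of all genes tested.

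Per length, the 34 genes spanned a wide range of levels. In WT mice *Sc5d* had the highest level, 202 ± 42 CPM per kb of exon (SD, n = 3), followed by *Insig1* at 184 ± 32, *Hmgcs1* at 135 ± 40 and *Insig2* at 96.2 ± 21.8. The subunits of the biliary transporter were close, with *Abcg5* at 27.0 ± 3.3 and *Abcg8* at 24.6 ± 2.8, and *Abca1* was at 18.8 ± 1.1. *Srebf2* was at 9.78 ± 1.16, below the means of most of the enzymes its protein controls. The lowest levels were those of *Mylip* (2.49 ± 0.29), *Abcg1* (0.647 ± 0.028) and *Soat1* (0.404 ± 0.029). In this order only 6 of the 33 gaps between neighbours exceeded the SD of both genes, so most neighbours did not differ beyond the spread between mice.

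**Figure D5:**
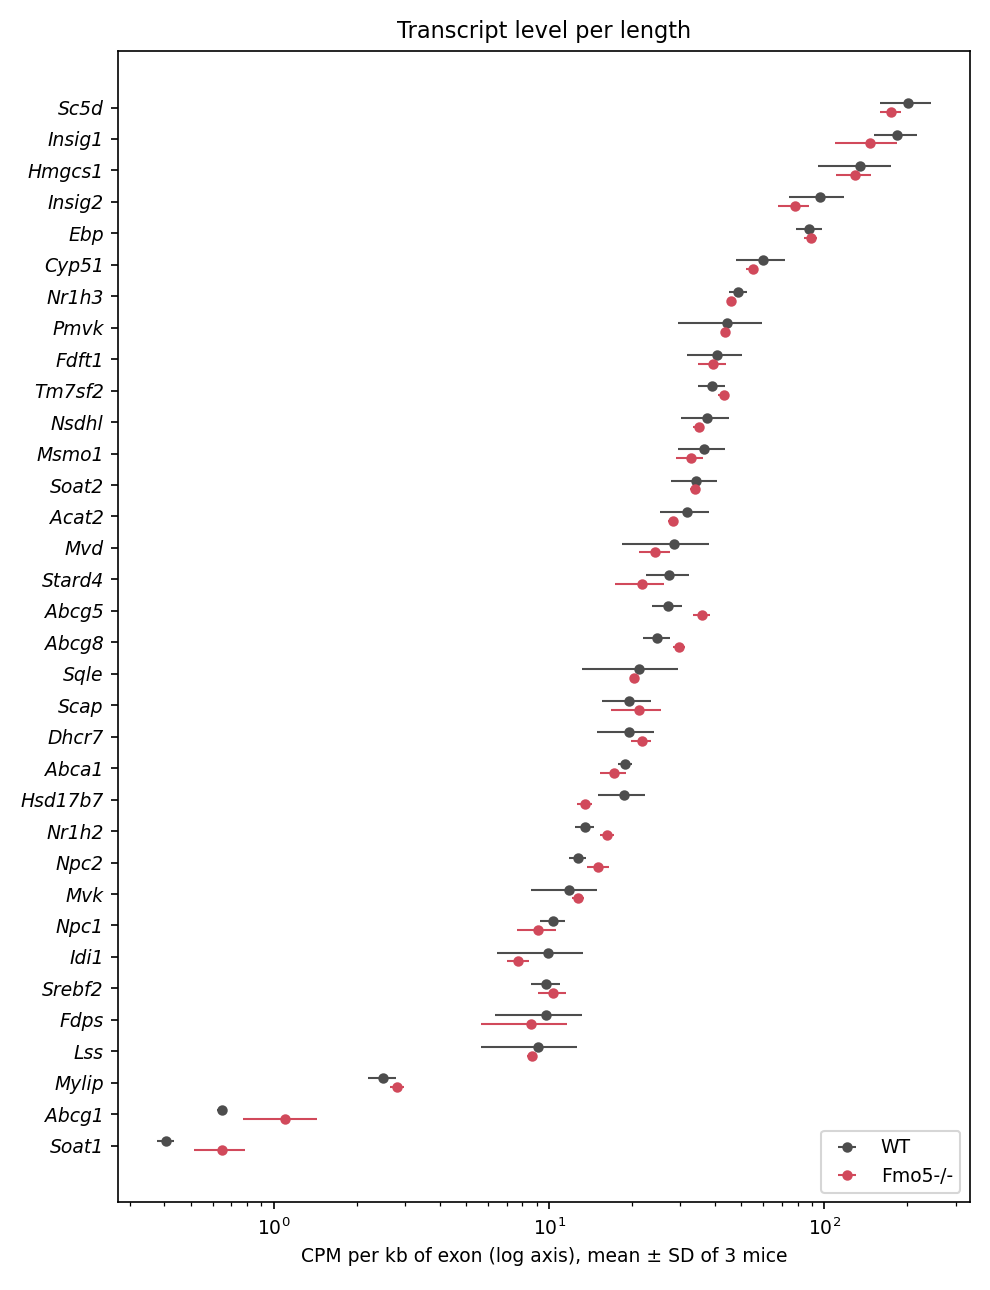
Level in CPM per kb of exon (log axis) of the 34 genes in WT and *Fmo5-/-* mice, in the order of the WT mean; points are means and bars the SD of 3 mice. Levels run from 202 for *Sc5d* to 0.404 for *Soat1* in WT mice.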

How the data were processed

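The authors sequenced liver libraries as single reads of 75 bases, aligned these with STAR 2.6.0c to the mm10 genome and deposited raw counts per gene for each library, with and without strand; the annotation release is not given in the sources used here. The authors also deposited a signal per library, which is the unstranded count divided by 1 factor per library (checked), and log2 fold changes, a score and p-values of their DESeq2 1.22.2 comparison, which were not used. Reads of both strands were analysed here. Genes took 66.2% to 69.2% of the reads listed; the other 30.8% to 33.8% (unmapped, or not assigned to a single gene) were left out. A count of 0 allows up to 0.0573 to 0.0668 CPM (3 counts), for counting error only.

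Genes were kept by filterByExpr (minimum count 10), scaled by TMM and tested with the robust quasi-likelihood fit of edgeR 4.0.16 in R 4.3.3, WT against *Fmo5-/-*, with Benjamini-Hochberg adjustment over all genes tested; DESeq2 1.42.0 was an alternative. The thresholds are those of the study. The scripts were tested on simulated counts. Normalized counts are counts divided by the TMM-scaled library size, times the mean of the 6 sizes. Exon lengths are from GENCODE vM21 (3 of the 34 genes were matched without the version number) and promoters from RefSeq. The labels do not say more than that each library is 1 mouse, so p-values measure the spread between these mice. All of the 34 genes are named. Values per mouse are given for those with the smallest unadjusted p in each list. They are also given for all regulators, receptors and efflux genes, and for *Hmgcs1* and *Sqle* (edgeR unadjusted p of 0.776 and 0.818). Further pathway genes are named only by the smallest unadjusted p, and markers as lists. *Clec4f*, *Dbp* and *Arntl* are exceptions, named after their values were seen. The genes and lists were chosen with earlier results of these data known. Alternatives were other scaling, filters, strand, lists, DESeq2 and leaving out each mouse.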

Additional observations from a re-analysis of the deposited data

How the results depend on the processing

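The number of the 34 genes called was 0 with edgeR and 2 with DESeq2 (*Hsd17b7* and *Abcg5*). It was 5 with no filter on low counts other than at least 1 count (*Insig1*, *Insig2*, *Hsd17b7*, *Stard4* and *Abcg5*), and 0 to 1 when a mouse was left out. The number of genes called over all tested was 126, and became 744 with DESeq2, 981 without the filter, 53 when genes under a mean of 500 were dropped first, and 14 to 259 when a mouse was left out (14 without *Fmo5-/-* mouse 1, 259 without *Fmo5-/-* mouse 3). The median log2 fold change of the synthesis enzymes ranged from -0.23 to 0.11 when a mouse was left out, and that of the efflux genes from 0.22 to 0.36; it was 0.34 without *Mylip* and 0.22 without *Abcg1*, the last chosen after seeing the data. The difference of the medians ranged from -0.59 to -0.14. Dropping genes under 500 first moved the median of abundant genes from -0.06 to 0.00, and *Soat1*, *Abcg1* and *Mylip* then have no value. The cause of these changes was not tested. No paired analysis was possible because the labels carry no shared replicate numbers. With 3 mice per genotype and 1 tissue sample per mouse, differences within the spread were not detectable.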
